A study of Mus musculus with 59 samples.

Results

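Mitochondrial ribosomal protein genes were followed in the prefrontal cortex of young mice. Members are the rows whose symbol begins with Mrpl or Mrps and a number. The pseudogene Mrpl23-ps1 was left out, and a normalised count of 10 or more was required in at least 4 libraries. All 78 remaining rows passed, among 17891 genes tested. Of the 78 products, 51 belong to the large subunit of the mitochondrial ribosome and 26 to the small subunit. Mrps30 and Mrps18a count with the large subunit despite their names, and Mrps36 is a component of the oxoglutarate dehydrogenase complex and not of the ribosome.

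The mice were C57BL/6J, either wild type (WT) or heterozygous for Naa15 (HT), the gene of the auxiliary subunit of the NatA N-terminal acetyltransferase. Pups of both sexes received vehicle, fluoxetine or lithium through the mother's milk from postnatal day 3 to 24, for 3 weeks, and cortex was taken on day 25. The labels name no allele type, dose or litter, so litters shared by pups cannot be told apart from treatment. There were 59 libraries in 12 groups of genotype, treatment and sex, with 5 libraries each except 4 for HT vehicle males. Lithium is a mood stabiliser, and fluoxetine is a selective serotonin reuptake inhibitor.

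The mitochondrial ribosome translates the few proteins encoded by mitochondrial DNA, all of them membrane subunits of the oxidative phosphorylation complexes. Its RNAs come from the mitochondrial chromosome, while all its proteins are encoded in the nucleus, made in the cytosol and imported. Many have a bacterial homologue, and others were acquired in mitochondria. In neurons, oxidative phosphorylation supplies most of the ATP used for ion pumping and synaptic transmission.

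Libraries held 25.0 to 32.9 M recovered reads. The 20 libraries of lithium pups and the 5 of HT females given fluoxetine stood apart from the other 34 on the first principal component, at -31.6 to -14.9 against -2.71 to 27.6. Genes of the mitochondrial chromosome took 6.76% to 10.3% of the reads in those 25 libraries (median 7.98%) and 4.96% to 7.83% in the others (median 5.84%). The slope of log2 level on transcript GC content ran from -0.26 to -0.055 per 10 percentage points in the 25 libraries and from -0.068 to 0.20 in the others. Per doubling of transcript length, the slope ran from -0.13 to -0.019 in the 25 libraries and from -0.0034 to 0.071 in the others. The length slopes did not overlap. All lithium libraries lie in that set, so lithium and whatever else sets these libraries apart cannot be told apart. Naa15 itself had 1634 ± 139 normalised counts in WT vehicle (SD, n = 10) and 1596 ± 65.3 in HT vehicle (SD, n = 9), a log2 difference of -0.034 ± 0.041 (SE; limma, adjusted p = 0.895). Counts over the whole gene therefore do not check the genotype labels.

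The upstream sequences of 5 members are shown because their values recur below: 4 that were higher with lithium and Mrps18b, which was lower with lithium in HT. Each line gives the 250 bases before the RefSeq start (GRCm38.p6), read 5′ to 3′ along the gene. Capitals mark the motifs CCGGAAG (ETS family), GCGCANGCG (NRF1) and CCAAT on either strand. The GENCODE starts of Mrps18c (chr5:100798627) and Mrpl53 (chr6:83109040) lie inside their windows.
Mrps18c, chr5:100798509-100798758, plus strand: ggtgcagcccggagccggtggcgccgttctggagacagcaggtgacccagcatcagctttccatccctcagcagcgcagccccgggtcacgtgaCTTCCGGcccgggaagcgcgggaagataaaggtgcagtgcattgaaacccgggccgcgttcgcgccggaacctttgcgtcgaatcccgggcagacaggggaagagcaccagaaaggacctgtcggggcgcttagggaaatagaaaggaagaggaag
Mrpl52, chr14:54426659-54426908, plus strand: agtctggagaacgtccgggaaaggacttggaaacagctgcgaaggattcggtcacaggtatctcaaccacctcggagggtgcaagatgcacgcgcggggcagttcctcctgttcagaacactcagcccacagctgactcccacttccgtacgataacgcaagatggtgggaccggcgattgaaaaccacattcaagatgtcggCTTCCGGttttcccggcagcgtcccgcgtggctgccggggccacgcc
Mrpl53, chr6:83108858-83109107, plus strand: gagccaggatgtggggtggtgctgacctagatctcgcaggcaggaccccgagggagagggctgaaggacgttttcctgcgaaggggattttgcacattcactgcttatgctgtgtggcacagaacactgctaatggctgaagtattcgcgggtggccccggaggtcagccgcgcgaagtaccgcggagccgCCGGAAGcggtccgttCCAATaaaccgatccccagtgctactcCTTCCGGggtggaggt
Mrpl30, chr1:37890227-37890476, plus strand: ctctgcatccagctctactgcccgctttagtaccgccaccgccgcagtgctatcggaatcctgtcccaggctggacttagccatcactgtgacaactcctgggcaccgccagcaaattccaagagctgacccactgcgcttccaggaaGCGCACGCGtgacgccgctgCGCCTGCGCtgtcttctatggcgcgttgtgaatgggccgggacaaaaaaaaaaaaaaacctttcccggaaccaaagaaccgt
Mrps18b, chr17:35916441-35916690, minus strand: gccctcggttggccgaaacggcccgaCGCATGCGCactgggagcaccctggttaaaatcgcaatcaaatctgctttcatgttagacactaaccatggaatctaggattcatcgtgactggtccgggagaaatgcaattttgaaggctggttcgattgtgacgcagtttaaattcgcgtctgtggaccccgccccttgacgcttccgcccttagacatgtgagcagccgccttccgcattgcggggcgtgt
RefSeq promoter windows, from 250 bases before to 50 after the start, matched 69 of the 78 members and 12667 tested genes. CCGGAAG occurred in 26 of the 69 members (37.7%) and in 17.1% of the tested genes. GCGCANGCG occurred in 16 members (23.2%) and in 13.2% of the tested genes. AAGATGGCG, the motif of YY1, occurred in 8 members (11.6%) and in 2.98% of the tested genes. CCAAT occurred in 27 members (39.1%) and in 42.4% of the tested genes. CCGGAAG and AAGATGGCG can share the letters AAG, AAGATGGCG and GCGCANGCG can share GCG, and GCGCANGCG can overlap itself. The shares over all 32851 windows in the table were 8.86%, 6.25%, 1.40% and 37.4% in the same order. A match is a description of letters and not of binding.

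Members often sit beside another gene. A protein-coding gene on the other strand began within 1000 bases upstream of 18 members (23.1%), against 9.01% of the 15169 protein-coding genes tested. Mrps18c starts 29 bases from Helq, Mrpl54 starts 26 bases from Apba3, and Mrps34 starts 29 bases from Eme2. An annotated gene overlapped 13 members (16.7%) on the same strand, where reads could be shared, among them Mrps24 with Urgcp and Mrps6 with Slc5a3. Such overlaps were not counted over all tested genes, so it is open whether that share is unusual. Transcripts of members had a median length of 1052 bases and a median GC content of 50.5%, against 2143 bases and 50.4% over all tested genes with both values.

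Levels per transcript length spanned a wide range. In WT vehicle libraries, Mrpl20 (bL20m, a bacterial-type protein of the large subunit) had the highest level at 1925 ± 109 normalised counts per kilobase (SD, n = 10). Mrps17 (uS17m) followed with 1623 ± 46.5 and Mrpl48 (mL48) with 1590 ± 96.1, and the latter pair lay within 1 SD of each other. At the low end by the mean over all 59 libraries were Mrps30 with 124 ± 6.70, Mrpl47 (uL29m) with 99.5 ± 4.62 and Mrpl1 (uL1m) with 93.2 ± 3.90 in WT vehicle. Mrpl23 had 117 ± 24.4 there, below Mrps30 and within its own SD of it. Over all 59 libraries the median member had 539 normalised counts per kilobase, against 192 for all tested genes, 4104 for the 83 cytosolic ribosomal protein genes and 2044 for the 36 nuclear genes of complex I. Large subunit members had a median of 561 and small subunit members a median of 473 on this scale.

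**Figure D1:**
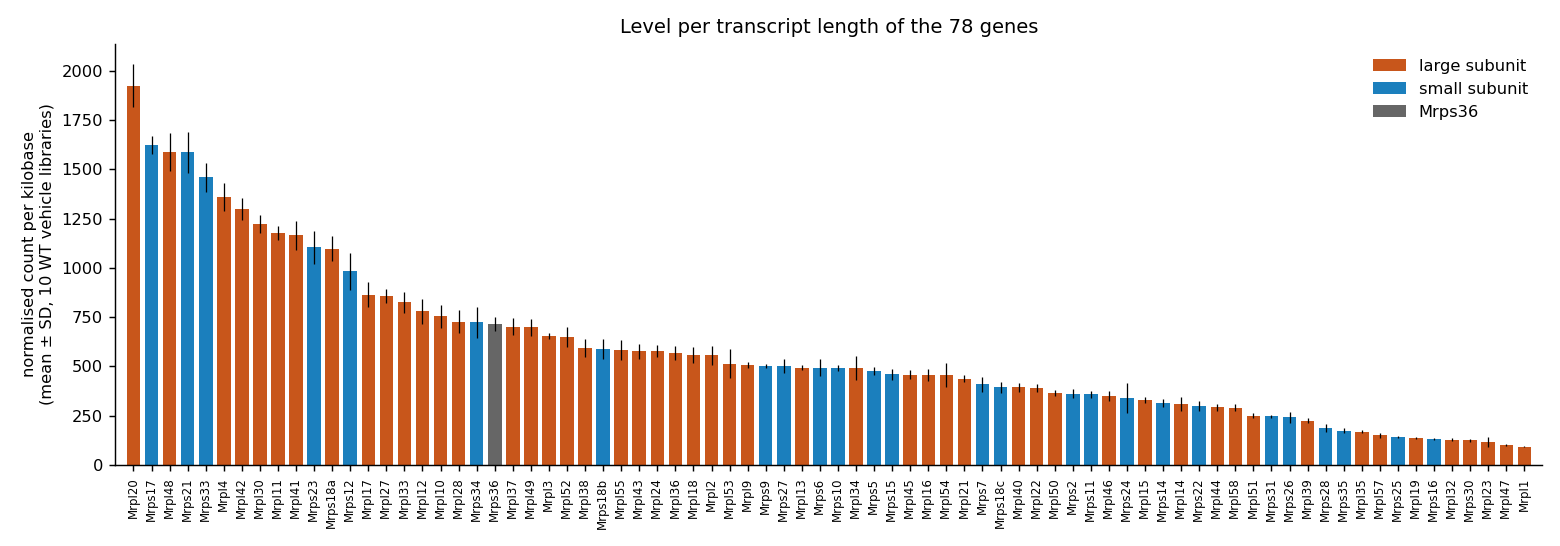
Normalised count per kilobase of transcript (vertical axis) of the 78 genes (horizontal axis, ordered by the bar height) as mean ± SD over 10 WT vehicle libraries, coloured by ribosomal subunit. Mrpl20 reached 1925 and Mrpl1 was lowest at 93.2, both of the large subunit. Small subunit members ran from 132 (Mrps16) to 1623 (Mrps17).

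In WT mice, lithium went with higher levels of most members. With limma on log2(value + 1) and Benjamini-Hochberg adjustment over all genes, 63 of 78 members were higher and 2 were lower (adjusted p under 0.05, two-sided). Over all genes, 26.6% were higher and 26.3% were lower. The median log2 difference of members was 0.21 and that of all genes 0.01. Of the large subunit, 41 of 51 members were higher and 2 lower (median 0.24), and of the small subunit 21 of 26 were higher and none lower (median 0.19). Members with a bacterial homologue were higher in 39 of 46 cases and those specific to mitochondria in 23 of 31.

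Mrps18c (chr5:100798627-100804471, plus strand, GRCm38), a protein of the small subunit, was the member with the smallest p. Its normalised counts in WT vehicle ran from 225 to 274 with a median of 252, and in WT lithium from 334 to 385 with a median of 351. The 2 groups did not overlap. The log2 difference was 0.50 ± 0.035 (SE; limma, adjusted p = 3.13e-17), with 10 of 10 lithium libraries above the vehicle mean of their sex. Mrpl54 (chr10:81264713-81266934, minus strand), a mitochondria-specific protein of the large subunit, had 222 to 324 in WT vehicle (median 272) and 337 to 439 in WT lithium (median 373). These groups did not overlap either, and the log2 difference was 0.49 ± 0.065 (adjusted p = 7.21e-09). Mrps24 (chr11:5703983-5715680, minus strand), the uS3m protein of the small subunit, had 277 to 536 in WT vehicle (median 333) and 392 to 641 in WT lithium (median 484). Here the groups overlapped through 1 vehicle female, and the log2 difference was 0.52 ± 0.096.

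Mrpl33, a small bL33m protein of the large subunit, had 364 to 443 in WT vehicle and 497 to 594 in WT lithium, with a log2 difference of 0.42 ± 0.037. Mrpl23 (uL23m) had 65.1 to 123 and 69.9 to 148, with a difference of 0.46 ± 0.13. Reads of Mrpl23 are uncertain, since the pseudogene Mrpl23-ps1 had a mean of 304 normalised counts in WT vehicle against 81.0 for Mrpl23.

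Mrpl4 (chr9:21002738-21008839, plus strand), the uL4m protein of the large subunit, moved the other way. It had 967 to 1193 normalised counts in WT vehicle (median 1122) and 891 to 1118 in WT lithium (median 928). The ranges overlapped, and 9 of 10 lithium libraries lay below the vehicle mean of their sex. The log2 difference was -0.21 ± 0.042 (limma, adjusted p = 2.5e-05). Mrpl38, a mitochondria-specific protein of the large subunit, had a log2 difference of -0.15 ± 0.049 (adjusted p = 0.00695), and its difference was 0.01 once the GC and length trend was removed.

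**Figure D2:**
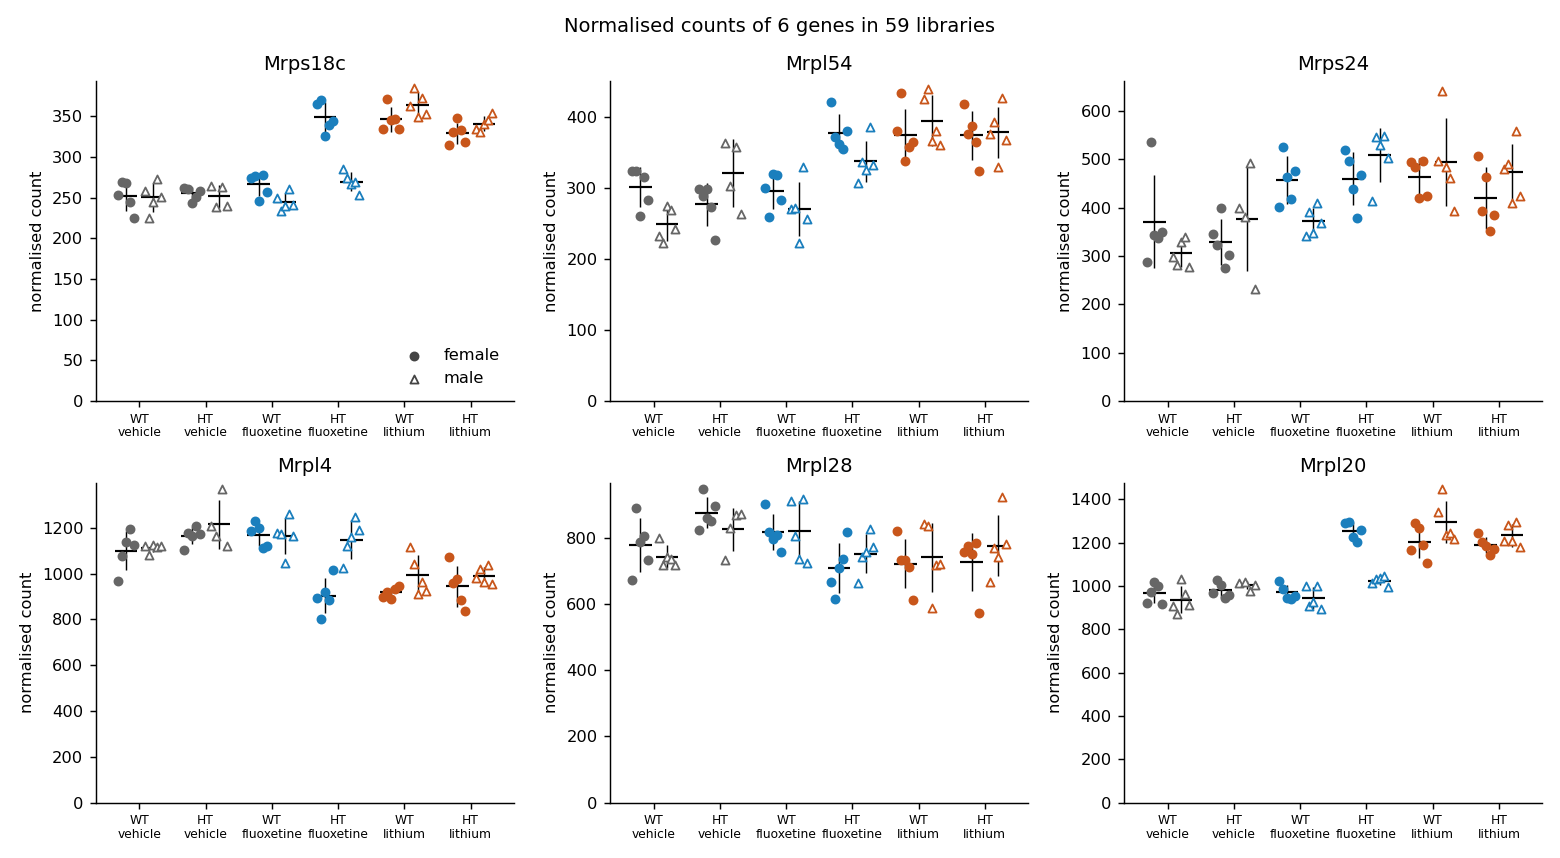
Normalised counts (vertical axis, from 0) of 6 members in the 59 libraries by genotype and treatment (horizontal axis); filled circles are females, open triangles males, and lines with bars give mean ± SD of each group of 4 or 5. Mrps18c ran from 225 to 274 in WT vehicle and from 334 to 385 in WT lithium, while Mrpl4 was lower with lithium.

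In HT mice, too, most members were higher with lithium. Of the 78 members, 53 were higher and 9 lower, against 25.7% and 24.9% of all genes, with a member median of 0.15 and an all-gene median of 0.03. Of the 63 members higher in WT, 52 (82.5%) were higher in HT, and Mrps35 was called higher in HT alone. The same share was not counted over all genes, so it is open whether 82.5% is unusual. Mrps18c had 239 to 264 in HT vehicle (median 258) and 315 to 354 in HT lithium (median 334), with a log2 difference of 0.40 ± 0.036 (limma, adjusted p = 1.51e-13). These groups did not overlap. Mrps24 had a difference of 0.36 ± 0.099, Mrpl52 of 0.34 ± 0.045, Mrpl54 of 0.34 ± 0.067 and Mrpl47 of 0.32 ± 0.034.

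Mrpl4 had 1105 to 1369 in HT vehicle (median 1175) and 836 to 1071 in HT lithium (median 969), without overlap, and a log2 difference of -0.30 ± 0.044 (limma, adjusted p = 8.01e-08). Mrps18b (mS40) followed with -0.21 ± 0.044, then Mrpl2 (uL2m) with -0.19 ± 0.053 and Mrpl38 with -0.19 ± 0.050. Mrps34 (mS34) had -0.19 ± 0.072 (adjusted p = 0.0272), and leaving out any of 6 single libraries ended that call, with adjusted p up to 0.0680. With each library's trend on GC content and length removed, Mrps18b had -0.26 (adjusted p = 1.6e-06), while Mrpl2 had -0.06 (0.383), Mrps34 had -0.0056 (0.954) and Mrpl38 had 0.02 (0.806). Chromosome 17 carries 8 members, and 5 of them were below 0 in both genotypes: Mrps34, Mrpl2, Mrps18a, Mrps18b and Mrpl28. The median lithium difference of the 8 was -0.07 in WT and -0.18 in HT. That grouping was noticed after the values were seen, and in WT none of the 5 was called from the deposited values. The GC content of the 5 ran from 52.6% in Mrps18b to 60.6% in Mrps34. After removal of the trend, Mrps34 had -0.0083 in WT and -0.0056 in HT, Mrpl2 had -0.0033 and -0.06, and Mrpl28 had 0.04 and -0.03. Mrps18a had -0.06 and -0.13, and Mrps18b had -0.14 and -0.26. With the trend removed, limma called Mrps18b lower in WT (adjusted p = 0.00347) and in HT, and Mrps18a lower in HT (adjusted p = 0.00236).

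**Figure D3:**
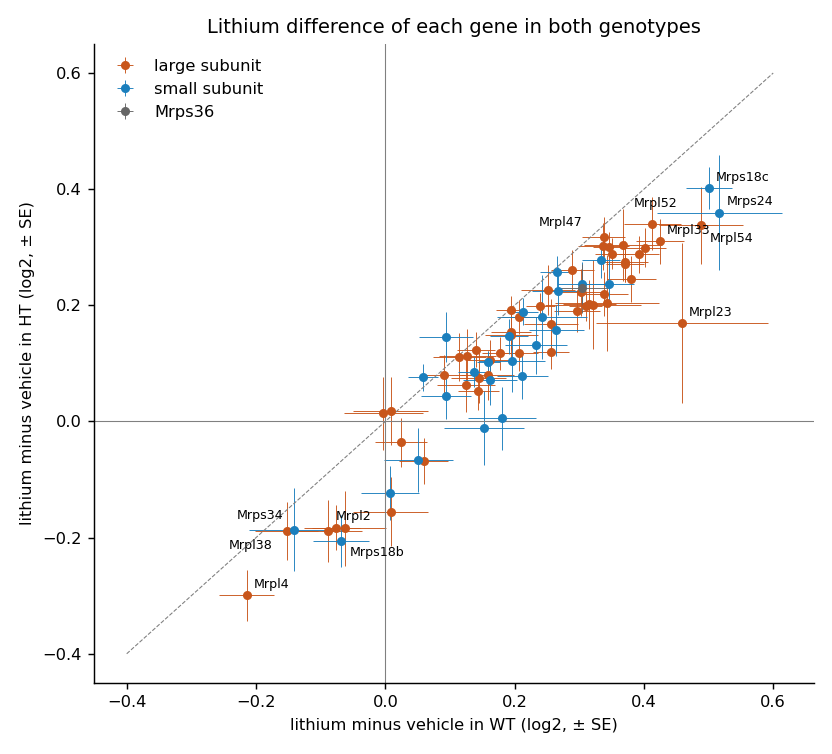
Log2 difference between lithium and vehicle in WT (horizontal axis) and in HT (vertical axis) for the 78 genes, each with its SE, coloured by subunit; the dashed line marks equal values. Of the 78 points, 74 lie below the dashed line, Mrps18c reaches 0.50 and 0.40, and Mrpl4 lies at -0.21 and -0.30.

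Libraries of the lithium and vehicle groups did not overlap at all for 32 members in WT, all higher with lithium, where 6.22% of all genes were higher and 5.87% lower without overlap. In HT, 23 members were higher without overlap and 1, Mrpl4, was lower, against 5.53% and 7.80% of all genes. The difference between the genotypes in the lithium response passed the test for no member and for no gene, 0% in either direction (limma; 16 members and 1058 genes had an unadjusted p under 0.05; edgeR called 0 members). Its member median was -0.08, against -0.0054 for all genes, and 74 of 78 members had a value below 0. The 78 members were measured in the same libraries, so they are not separate observations of the genotype. The smallest p belonged to Mrpl39 (mL39), at -0.14 ± 0.040 (adjusted p = 0.832). Between HT and WT mice given lithium, limma called 0 members and edgeR called 0. Of all genes, limma called 0.168% higher and 0.218% lower. An unadjusted p under 0.05 (limma) was found for 16 of 78 members and for 2509 of 17891 genes. Mrpl30 (uL30m) had the smallest p there, with -0.08 ± 0.025 (adjusted p = 0.111).

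A summary per library was taken as the median over members of the log2 value less the WT vehicle mean. It ran from 0.06 to 0.39 in the 25 libraries that stood apart and from -0.08 to 0.12 in the other 34. With each library's trend on GC content and length removed, the ranges were -0.05 to 0.28 and -0.08 to 0.10. The medians were 0.20 and 0.03 from the deposited values, and 0.10 and 0.04 with the trend removed. The 2 sets overlapped on both scales. From the deposited values the overlap came from HT lithium female 5 alone, at 0.06. The next lowest of the 25 was HT lithium male 1, at 0.15.

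**Figure D4:**
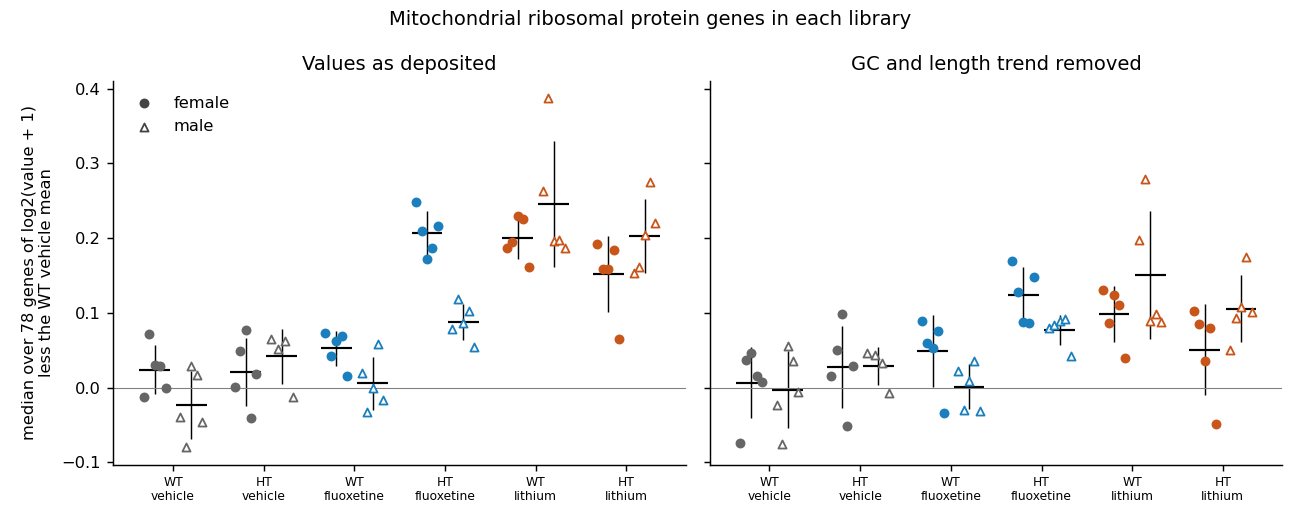
Median over the 78 genes of log2(value + 1) less the WT vehicle mean (vertical axis) in each library, by genotype and treatment (horizontal axis), from the deposited values (left) and with each library's GC and length trend removed (right); lines with bars give mean ± SD of each group. Values of lithium libraries and HT fluoxetine females ran from 0.06 to 0.39 on the left and from -0.05 to 0.28 on the right.

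With that trend removed, lithium in WT left 46 members higher and 2 lower, against 17.9% and 19.0% of all genes, with a member median of 0.12. In HT, 26 members were higher and 6 lower, against 12.5% and 18.6%, with a member median of 0.04. Mrpl54 had a log2 difference of 0.56 ± 0.052 in WT and 0.44 ± 0.053 in HT, and Mrps24 had 0.54 ± 0.087 and 0.42 ± 0.090. Mrps18c had 0.19 ± 0.032 and 0.09 ± 0.033, and Mrpl33 had 0.12 ± 0.039 and -0.02 ± 0.040. Mrpl4 had -0.11 ± 0.030 and -0.14 ± 0.031. Among the 63 members called higher in WT the GC content ran from 41.4% to 60.4% (Mrpl54), with a median of 49.7%. The 2 called lower had 59.6% and 60.1%. Across the 78 members, the WT lithium difference of the deposited values had a correlation of -0.15 with GC content and -0.32 with length. In HT these correlations were -0.28 and -0.25.

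Fluoxetine gave different pictures in the genotypes. In WT mice, limma called 0 members and edgeR called 0. Of all genes, limma called 0.632% higher and 0.386% lower. At an unadjusted p under 0.05 (limma) there were 8 of 78 members and 1992 of 17891 genes. Mrps34 had the smallest p (0.23 ± 0.070, adjusted p = 0.102), then Mrps24 (0.31 ± 0.096, adjusted p = 0.118) and Mrpl23 (0.36 ± 0.13, adjusted p = 0.223). Leaving out WT vehicle female 2 brought Mrps34 (adjusted p = 0.0445) and Mrps24 (adjusted p = 0.0202) past the threshold. In HT mice, 49 members were higher with fluoxetine and 4 lower, against 14.8% and 16.3% of all genes, with a member median of 0.13.

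Without the 5 HT fluoxetine females, the comparison in HT was of 5 fluoxetine males with 4 vehicle males. There limma called 0 members, with a member median of 0.05, against 0.0838% of all genes higher and 0.0615% lower. The smaller comparison has less power, and its part in the lower count was not tested. The member median of the fluoxetine difference was 0.21 in HT females and 0.05 in HT males, and 0.03 in WT females and in WT males. Not every member followed these medians: Mrps24 had 0.48 and Mrpl53 had 0.21 without the HT fluoxetine females (adjusted p = 0.232 and 0.615). Once each library's trend was removed, 26 members were higher in HT and 2 lower, against 5.49% and 6.55%.

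The difference between the sexes in the fluoxetine response of HT mice passed the test for 25 members in the direction of females and for 2 in the direction of males, against 6.59% and 8.59% of all genes. With each library's trend on GC content and length removed the counts were 4 and 0, and without HT vehicle male 1 the first count was 16. Mrps18c had 262, 260, 244, 251 and 258 normalised counts in HT vehicle females and 366, 370, 326, 339 and 345 in HT fluoxetine females. All 5 fluoxetine females were above all 5 vehicle females. In HT males it had 264, 239, 264 and 240 with vehicle and 286, 274, 266, 269 and 254 with fluoxetine, and these overlapped. The interaction was 0.35 ± 0.072 (limma, adjusted p = 0.000606). Mrpl20 had an interaction of 0.33 ± 0.064, Mrps14 (uS14m) of 0.36 ± 0.075 and Mrpl52 (mL52) of 0.37 ± 0.091. These 4 calls ended with the trend removed, at 0.06 for Mrps18c (adjusted p = 0.758), 0.16 for Mrpl20 (0.283), 0.17 for Mrps14 (0.259) and 0.27 for Mrpl52 (0.0655). Mrpl54 had 0.37 ± 0.13 (adjusted p = 0.0494), a call that ended on leaving out any of 36 single libraries, with adjusted p up to 0.148.

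Mrpl4 had 1105, 1178, 1166, 1210 and 1175 in HT vehicle females and 896, 801, 922, 884 and 1017 in HT fluoxetine females, again without overlap. The interaction was -0.29 ± 0.087 (limma, adjusted p = 0.0166), and it ended without HT fluoxetine female 2 (adjusted p = 0.0521) or HT vehicle male 4 (adjusted p = 0.0557). Mrpl2 had -0.36 ± 0.11 (adjusted p = 0.0148). Neither was called with the trend removed, at -0.16 (adjusted p = 0.168) and -0.27 (adjusted p = 0.135).

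**Figure D5:**
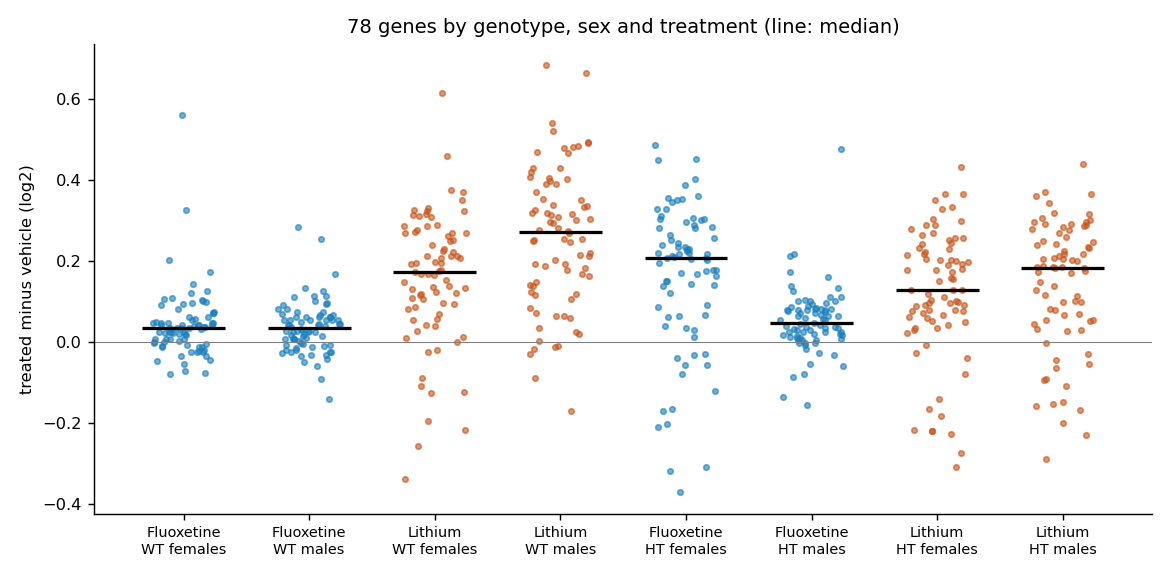
Log2 difference between treated and vehicle groups (vertical axis) of the 78 genes within each genotype and sex (horizontal axis); each point is a gene and the line is the median. The median for fluoxetine was 0.21 in HT females and 0.05 in HT males, and for lithium it lay between 0.13 and 0.27.

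In HT with fluoxetine, Mrps24 had 378 to 549 normalised counts against 232 to 492 with vehicle, a log2 difference of 0.48 ± 0.099. It was 0.49 in females and 0.48 in males. Without the HT fluoxetine females, in males alone, its SE was 0.15 (limma, adjusted p = 0.232). Mrps18c had 0.28 ± 0.036, Mrpl54 0.26 ± 0.067 and Mrps22 (mS22) 0.23 ± 0.042. Mrpl53 had 0.25 ± 0.076, a call that ended without HT vehicle male 4 (adjusted p = 0.0502). Mrpl4 had -0.23 ± 0.044 and Mrpl28 (bL28m) -0.22 ± 0.065. Mrps18b had -0.13 ± 0.044, and the call ended without HT fluoxetine female 4 (adjusted p = 0.055) or HT vehicle male 4 (adjusted p = 0.0637). Mrpl2 had -0.14 ± 0.053 (adjusted p = 0.0417), and leaving out any of 11 single libraries ended that call. With the trend removed, the calls of Mrps22 (0.12, adjusted p = 0.0575), Mrpl28 (-0.12, adjusted p = 0.208) and Mrpl2 (-0.04, adjusted p = 0.625) ended, and Mrps18c had 0.10 (adjusted p = 0.0259).

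HT was then compared with WT within a treatment. Under vehicle, limma called 0 members between HT and WT and edgeR called 0. Of all genes, limma called 0.0279% higher and 0.0783% lower. At an unadjusted p under 0.05 (limma) there were 10 of 78 members and 1413 of 17891 genes. The member median was 0.04. Mrps17 had the smallest p, at 0.06 ± 0.018 (adjusted p = 0.323), followed by Mrpl28 (0.16 ± 0.065) and Mrpl55 (0.14 ± 0.059). Under fluoxetine, 47 members were higher in HT and 3 lower, against 15.6% and 17.8% of all genes. The largest differences were those of Mrpl54 (0.34 ± 0.065), Mrpl53 (0.32 ± 0.074), Mrpl14 (uL14m, 0.28 ± 0.080), Mrpl52 (0.27 ± 0.044) and Mrps18c (0.26 ± 0.035). Lower were Mrpl4 (-0.20 ± 0.042), Mrpl28 (-0.16 ± 0.063) and Mrps18a (-0.09 ± 0.038). The calls of Mrpl28 and Mrps18a ended on leaving out any of 8 and 31 single libraries, with adjusted p up to 0.0952 and 0.132. With the trend removed, 24 members were higher and 2 lower, against 5.77% and 8.56%. Mrps18c then had 0.09 (adjusted p = 0.0649), Mrpl28 -0.06 (0.575) and Mrps18a -0.04 (0.411), all below the threshold for a call, while Mrpl54 had 0.42 and Mrpl14 0.36. Without the HT fluoxetine females, males alone were compared, and 4 members were higher and 0 lower, against 0.732% and 0.671% of all genes. These were Mrpl15, Mrpl46, Mrps30 and Mrpl53.

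The fluoxetine response differed between the genotypes for 27 members in the direction of HT and for 3 in the other, against 8.97% and 11.7% of all genes. Mrps18c had 0.25 ± 0.050 (limma, adjusted p = 0.000274), and Mrps22, Mrps33, Mrps31 and Mrpl33 had 0.24, 0.23, 0.22 and 0.21. Mrpl28 had -0.33 ± 0.091, Mrpl4 -0.30 ± 0.061 and Mrps18a -0.16 ± 0.054. With the trend removed 6 members were called in the direction of HT and 1 in the other; of these 8 named members Mrpl4 was called (-0.15, adjusted p = 0.0447), and Mrps18c had 0.06 (adjusted p = 0.650). Without the HT fluoxetine females this comparison used males alone, and no member and no gene was called. Averaged over genotypes and treatments, 3 members were higher in females and 1 in males, against 3.55% and 5.20% of all genes. They were Mrps18c (0.07 ± 0.020), Mrpl32 (0.06 ± 0.021), Mrpl46 (0.06 ± 0.020) and, lower, Mrpl4 (-0.10 ± 0.025). Without the HT fluoxetine females, or with the trend removed, limma called 0 members there, and the first 3 calls ended on leaving out any of 6, 31 and 28 single libraries.

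The RNAs of the mitochondrial ribosome were higher with lithium too. The large rRNA mt-Rnr2 had 82344 to 108590 normalised counts in WT vehicle and 118230 to 177610 in WT lithium, and the small rRNA mt-Rnr1 had 62680 to 84386 and 85365 to 129440. Neither overlapped. The libraries were made from poly(A) RNA, so these counts cover only captured rRNA. Of the 15 mitochondrial chromosome genes tested, 12 were higher in WT with lithium and none lower (median 0.57). In HT 12 were higher (median 0.45). Over all genes, 26.6% were higher and 26.3% lower in WT, and 25.7% were higher in HT.

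Other genes of the pathway were more mixed. Their counts stand against 26.6% of all genes higher and 26.3% lower with lithium in WT, and 25.7% and 24.9% in HT. Of 5 subunits with other names, 4 were higher with lithium in each genotype. Chchd1 (mS37) had a log2 difference of 0.70 ± 0.051 in WT and 0.62 ± 0.053 in HT, and Dap3 (mS29) 0.23 ± 0.028 and 0.14 ± 0.028, the latter not called with each library's trend on GC content and length removed (0.05, adjusted p = 0.178). Ptcd3 (mS39) had 0.18 ± 0.022 and 0.13 ± 0.023, and with the trend removed 0.01 and -0.08, the latter called lower (limma, adjusted p = 0.0397). Aurkaip1 (mS38) had 0.21 ± 0.045 and 0.12 ± 0.047, and its HT call ended on leaving out any of 11 single libraries. Of 13 translation factors, 7 were higher and 1 lower in WT, and 6 and 1 in HT. The lower factor was Tufm, the elongation factor Tu of mitochondria (-0.37 ± 0.039 and -0.36 ± 0.040), while the initiation factor Mtif2 had 0.23 ± 0.028 and 0.26 ± 0.028, or 0.00044 and 0.03 and no call with the trend removed.

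Of 27 assembly factors, 12 were higher and 1 lower in WT, and 11 and 5 in HT. Ngrn had 0.26 ± 0.024 and 0.20 ± 0.024, and Fastkd2, which binds mitochondrial RNA, had 0.28 ± 0.031 and 0.27 ± 0.032. Of 20 mitochondrial tRNA synthetases, 8 were higher and 3 lower in WT, and 9 and 3 in HT. Hars2 had 0.21 ± 0.024 and 0.22 ± 0.024, and Vars2 had -0.29 ± 0.032 and -0.29 ± 0.033, which turned to 0.05 and 0.04 with the trend removed. Of 12 genes of mitochondrial transcription, 7 were higher and 3 lower in each genotype. Slirp, which stabilises mitochondrial mRNA, had 0.42 ± 0.042 and 0.36 ± 0.044, and the RNA polymerase gene Polrmt had -0.29 ± 0.045 and -0.35 ± 0.047. Neither was called with the trend removed, where Slirp had 0.09 and 0.02 and Polrmt 0.04 and -0.02. Of 10 regulators of mitochondrial biogenesis, 2 were higher and 3 lower in WT (20% and 30%), and 2 and 4 in HT (20% and 40%), and the higher share was below that of all genes. Pprc1 had -0.52 ± 0.053 and -0.50 ± 0.055, and Ppargc1b had -0.72 ± 0.12 and -0.54 ± 0.12, both coactivators of nuclear-encoded mitochondrial genes. The HT call of Ppargc1b ended with the trend removed, at -0.25 (adjusted p = 0.0922).

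Members were not alone in their direction. With lithium in WT, 63 of 83 cytosolic ribosomal protein genes were higher and 5 lower (median 0.30), and 27 of 36 nuclear complex I genes were higher and 4 lower (median 0.35). In HT the counts were 55 and 9 (median 0.21) and 24 and 6 (median 0.26). Of all genes, 26.6% were higher and 26.3% lower in WT, and 25.7% and 24.9% in HT. Counts of these families with the GC and length trend removed are not given here. The genes outside the members whose log2 values went most closely with the mean standardised member over the 59 libraries were Atp6v0b, Chchd2, Ndufs5, Uqcrfs1 and Atp5g3, with Pearson correlations of 0.95, 0.95, 0.94, 0.94 and 0.94. Within the 34 other libraries these were 0.90, 0.85, 0.81, 0.86 and 0.78. All points share depth and library preparation.

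Markers of other cells moved as well. With lithium in WT, 4 of 5 endothelial markers were lower (median -0.48), and their summed level was 4258 to 5710 against 5122 to 7352 with vehicle. Of 5 mural cell markers 3 were lower, of 7 astrocyte markers 4, and of 8 neuron markers 5, with 1 neuron marker higher. Of all genes, 26.3% were lower and 26.6% higher. In HT with lithium the same counts of lower markers were 4, 3, 4 and 5, against 24.9% of all genes. With fluoxetine in HT, where 49 members were higher, they were 4, 3, 3 and 4, against 16.3% of all genes, and 1 neuron marker was higher. The summed endothelial level was 4735 to 5273 there (4735 to 5166 in the females) against 4916 to 6940 with vehicle. These counts cover 4 of the 11 lists. Microglia markers were mixed: Csf1r and Cx3cr1 lay below the vehicle mean of their sex in 10 of 10 WT lithium libraries. Aif1 lay above it in 10, P2ry12 in 9, C1qa in 7 and Tmem119 in 3. Every marker of all 11 lists was detected, so none was at 0. Their part in the members' differences was not tested. In this tissue, fewer cells of a type and less RNA per cell cannot be told apart.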

How the data were processed

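RNA was sequenced from mouse prefrontal cortex with a stranded poly(A) kit, per the labels' protocols. The authors deposited 1 table of normalised counts, a signal per gene and library. Each value up to 1000 reads was a whole number of reads, within 0.01 read, divided by a factor per library, in 59 of 59 columns. GRCm38, DESeq2 1.19.11, Salmon 0.11.2 and R 3.6.0 appear in the submitters' processing notes, with no role given. Symbols, lengths and GC content came from GENCODE.

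Genes with a value of 10 or more in at least 4 libraries were tested with limma 3.58.1 (R 4.3.3) on log2(value + 1), with 12 group means, 47 residual degrees of freedom and Benjamini-Hochberg adjustment, after a trial on simulated data. Sexes were weighted equally. Alternatives were a pseudocount of 5, no filter, quantile normalisation, median centring, a replicate block, removal of each library's GC and length trend, leaving out the 5 HT fluoxetine females, edgeR 4.0.16 on recovered reads, and leaving out each library. Removing the trend together with those females was added after seeing the data. Without those females, every comparison of HT fluoxetine libraries with vehicle or with WT used males alone. Nothing says that libraries come from separate litters, so p-values measure the spread between these samples.

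Named members are the 5 largest increases and decreases per comparison, or the 3 smallest p, and the 3 highest and lowest levels per length; from other lists, up to 4 called genes with the smallest p. Members and lists were chosen with earlier results of these data known. Replicate numbers do not pair libraries: the mean correlation of deviations was 0.010 over 319 same-number pairs.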

Additional observations from a re-analysis of the deposited data

Results flagged for a closer look

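Among 32 named members in 12 groups and the member summary, 396 groups of 4 or 5 libraries were examined, and in 18 the outermost library lay further from the rest than Dixon's 95% limit. Chance marks about 1 in 20 groups. For Mrps17, HT lithium female 2 was the lowest of its group at 1476 normalised counts. For Mrpl28, HT lithium female 5 was the lowest of its group at 572 normalised counts. For Mrps24, WT vehicle female 2 was the highest of its group at 536 normalised counts. For Mrpl23, HT fluoxetine female 2 was the highest of its group at 188 and HT lithium female 3 was the highest of its group at 138 normalised counts. For Mrpl53, WT lithium male 2 was the highest of its group at 501 normalised counts. For Mrps22, HT fluoxetine female 1 was the highest of its group at 485 normalised counts. For Mrpl4, WT vehicle male 2 was the lowest of its group at 1080 normalised counts. For Mrps18b, HT fluoxetine female 4 was the lowest of its group at 375 and HT lithium male 3 was the lowest of its group at 375 normalised counts. For Mrpl38, HT fluoxetine female 5 was the highest of its group at 862 and WT fluoxetine female 2 was the highest of its group at 966 normalised counts. For Mrpl14, WT fluoxetine male 2 was the lowest of its group at 167 normalised counts. For Mrpl42, WT lithium female 4 was the highest of its group at 1069 normalised counts. For Mrps14, WT vehicle male 3 was the highest of its group at 658 normalised counts. For Mrpl46, WT fluoxetine female 1 was the highest of its group at 452 normalised counts. For the median over members, HT lithium female 5 was the lowest of its group at 0.0645 and HT vehicle male 4 was the lowest of its group at -0.013 on the log2 scale.

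The response to fluoxetine differed between the genotypes (HT minus WT, log2, limma interaction test) for Mrps18c at 0.25, Mrps22 at 0.24, Mrps33 at 0.23, Mrps31 at 0.22, Mrpl33 at 0.21, Mrpl28 at -0.33, Mrpl4 at -0.30, Mrps18a at -0.16. It differed between the sexes in HT (female minus male) for Mrpl54 at 0.37, Mrpl52 at 0.37, Mrps14 at 0.36, Mrps18c at 0.35, Mrpl20 at 0.33, Mrpl2 at -0.36, Mrpl4 at -0.29. Both comparisons rest on the HT fluoxetine females, which stood apart with the lithium libraries. Without them the genotype interaction, in males alone, called 0 members, and the sex interaction in HT could not be fitted.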

How the results depend on the processing

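A pseudocount of 5, no filter and the replicate block left the count of members called in each of the 11 comparisons within 1.5 times; with the replicate block, lithium gave 64 higher and 2 lower in WT and 53 and 9 in HT, and fluoxetine in HT 50 and 3. Quantile normalisation, median centring and edgeR did so too except for the sex comparison, where median centring gave 1 higher, quantile normalisation 2 lower, and edgeR 0 higher and 3 lower. With the GC and length trend removed, fluoxetine in HT gave 26 higher and 2 lower, lithium in HT 26 higher, HT against WT under fluoxetine 24 higher, the genotype interaction with fluoxetine 6 higher and 1 lower, the sex interaction 4 higher and 0 lower, and the sex comparison 0 and 0. Without the HT fluoxetine females, comparisons of HT fluoxetine libraries with vehicle or with WT used males alone. Fluoxetine in HT then gave 0 and 0, and HT against WT under fluoxetine 4 and 0. The genotype interaction gave 0 and 0, and so did the sex comparison. With both changes, lithium in HT gave 26 higher and 5 lower, fluoxetine in HT 0 and 0, HT against WT under fluoxetine 7 and 0, the genotype interaction 0 and 0, and the sex comparison 0 and 0. The cause of these shifts was not tested.

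Leaving out each of the 59 libraries gave 57 to 64 members higher and 2 to 6 lower for lithium in WT, 47 to 55 and 6 to 9 in HT, 0 to 2 and 0 to 0 for fluoxetine in WT, 47 to 51 and 2 to 5 in HT, 45 to 51 and 1 to 4 for HT against WT under fluoxetine, 23 to 30 and 3 to 6 for the genotype interaction with fluoxetine, 16 to 26 and 1 to 3 for the sex interaction, and 0 to 5 and 1 to 3 for the sex comparison. The 6 lower members for lithium in WT came without WT vehicle female 1, the 2 higher for fluoxetine in WT without WT vehicle female 2, and the 16 for the sex interaction without HT vehicle male 1.

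Some log2 differences changed sign, all from calls of the deposited values. With the trend removed, with or without the HT fluoxetine females, lithium gave Mrpl38 0.014 in WT and 0.016 in HT; Mterf3 -0.00011 in WT and -0.064 in HT; Vars2 0.046 and 0.036; and in WT Polrmt 0.041, Tfam -0.11 and Gabpb1 -0.046. In HT it gave Ptcd3 -0.077, Rars2 -0.017, Aars2 0.054, Tfb2m -0.0071 and Mtpap -0.045. Without the HT fluoxetine females, fluoxetine in HT gave Mrpl2 0.042, or 0.089 with the trend also removed, and HT against WT under fluoxetine gave Mrps18a 0.046, or 0.049. With both changes, Mrps18a had 0.015 in the genotype interaction and Mrps18c -0.0059 in the sex comparison. Mrpl23, at 65.1 to 188.5 normalised counts, had the lowest mean count of the members (101). It also had their largest SE, 0.19 for lithium in WT females. The cause of that SE was not tested.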
